A study of Homo sapiens with 16 samples.

Results

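The proteasome subunit genes described here are the genes of the deposited table whose symbol is PSMA, PSMB, PSMC, PSMD, PSME or PSMG followed by digits only, and whose mean level over the 16 libraries was at least 1 RPKM (RPKM are read counts scaled by gene length and by the depth of the library). By symbol 47 of the 20612 genes in the table matched, and 43 of these met the level. The rule used no difference between conditions, but earlier results of these data were known when the members were chosen. The 43 members were 7 genes of the alpha ring (PSMA1 to PSMA7), 7 of the beta ring (PSMB1 to PSMB7), 1 immunoproteasome subunit (PSMB10), 4 chaperones of core assembly (PSMG1 to PSMG4), 6 ATPases of the cap (PSMC1 to PSMC6), 11 other cap subunits (PSMD1 to PSMD4, PSMD6 to PSMD8 and PSMD11 to PSMD14), 3 chaperones of cap assembly (PSMD5, PSMD9 and PSMD10) and 4 activators (PSME1 to PSME4). PSMA8, PSMB8, PSMB9 and PSMB11 stayed below the level. The lowest member, PSMG4, averaged 11.6 RPKM, and the highest gene left out, PSMB9, averaged 0.475 RPKM.

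The libraries came from HCT116, a line of human colorectal cancer cells, with wild-type p53 (p53+/+) and from an isogenic HCT116 line without p53 (p53-/-). Both lines received DMSO as vehicle, 5 µM Nutlin-3A, which blocks the binding of MDM2 to p53, 2.5 µM Entinostat, which inhibits class I histone deacetylases, or Nutlin-3A with Entinostat (called the combination), each for 8 hours. The labels do not repeat the doses for the combination. Every one of the 8 groups had 2 replicates, and the labels do not say that these were separate cultures. The p-values rest on the spread between replicates, pooled over the 8 groups, and this spread may be purely technical. Each genotype was 1 line, so loss of p53 and any other difference between the lines cannot be told apart.

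The proteasome degrades proteins that carry ubiquitin chains. Its core particle (20S) is a barrel of alpha rings outside and beta rings inside, with the peptidases PSMB5, PSMB6 and PSMB7 facing the chamber. The cap (19S) binds ubiquitin chains, removes them, and unfolds the protein with a ring of PSMC ATPases. Chaperones of the PSMG family pair up to build the alpha ring, and PSMD5, PSMD9 and PSMD10 guide the ATPase ring. In immune cells, or under interferon, PSMB8, PSMB9 and PSMB10 replace PSMB5, PSMB6 and PSMB7, and the activator of PSME1 and PSME2 is induced with them. When proteasome activity is short, cells raise most subunit genes together through NFE2L1, a transcription factor that binds antioxidant response elements in their promoters.

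Alignments per library ran from 45902800 to 55507300, and the summed RPKM from 348800 to 413745, highest in combination replicate 1 of p53+/+ cells. The epithelial markers EPCAM, KRT8, KRT18, KRT19, CDH1 and CDX2 were present in all libraries, with EPCAM at 126 RPKM or more, while VIL1 stayed at 0.0435 RPKM or less and the leukocyte marker PTPRC at 0.0161 or less. Of 11 markers of leukocytes, fibroblasts and endothelium 9 stayed at 0.238 RPKM or less, but CD68 had 5.41 to 7.33 RPKM in the libraries with Entinostat and 3.40 to 5.03 in those without, and COL1A1 3.60 to 5.80 and 2.00 to 2.66. The summed level of the 11 was 10.2 to 13.6 RPKM with and 5.55 to 7.62 without Entinostat, and its part in the changes below was not tested. Replicates also differed as sets. In the 4 groups with Entinostat 27 to 30 of the 43 members were lower in replicate 1 than in replicate 2, and in 3 of the 4 other groups 30 to 35 were higher in replicate 1. In p53+/+ DMSO it was 22.

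Subunit genes were among the more abundant transcripts of these cells. PSMB1, a beta-ring subunit with no peptidase site, was the highest member with a mean of 277 RPKM, rank 180 of all genes in the table. It had 297 and 268 RPKM in p53+/+ DMSO and 308 and 271 in p53+/+ combination cells. With DMSO p53-/- cells had 313 and 261 RPKM of PSMB1, and with the combination 290.3 and 251. These groups overlapped, and replicate 1 was the higher one in each. The beta ring had the highest median of the mean levels, 192 RPKM, followed by the alpha ring with 117, the ATPases with 97.3 and the other cap subunits with 96.5. Activators had a median of 62.9, chaperones of core assembly 33.9, and chaperones of cap assembly 18.2. Both chaperone classes thus lay below every ring or ATPase class, on a scale that accounts for gene length.

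Summed over the 43 members, the level was 4519 and 4471 RPKM in p53+/+ DMSO, or 1.19% and 1.22% of all RPKM in the library. It was 3683 and 3749 RPKM in p53+/+ combination cells (0.890% and 1.02%). The sums of p53-/- cells were 5011 and 4704 RPKM with DMSO and 4035 and 4089 with the combination. The DMSO and combination libraries did not overlap in either line. RPKM are shares of a library, so a lower level of these transcripts and a higher level of all others cannot be told apart, nor can fewer cells of a type and less RNA per cell.

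**Figure D1:**
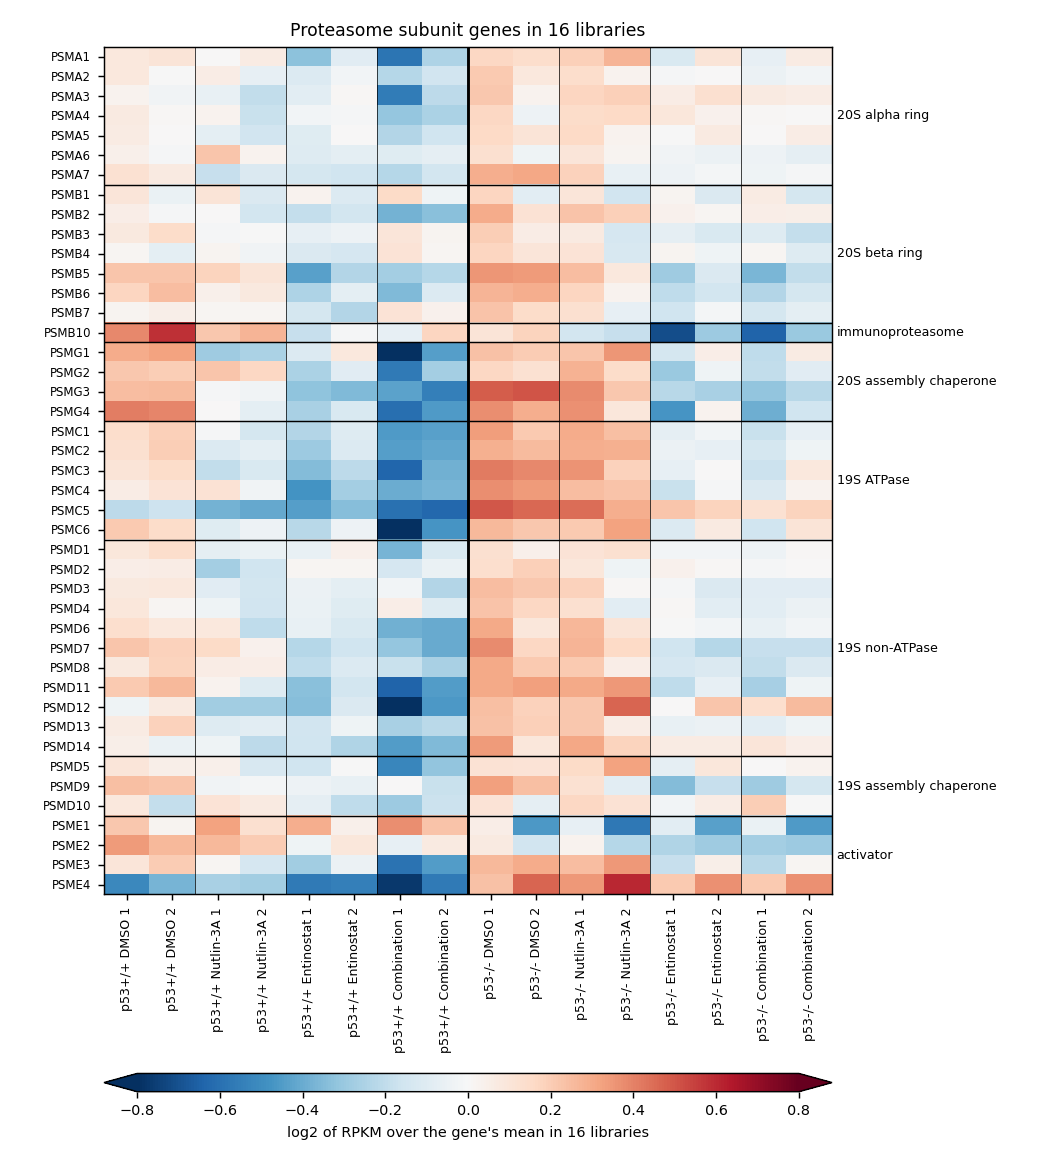
Level of each of the 43 members (rows, grouped by role) in each of the 16 libraries (columns), as the log2 of its RPKM over its own mean in the 16 libraries, with blue below and red above that mean. Colours end at -0.8 and 0.8, and the darkest blue includes lower values. The DMSO columns of both lines are mostly red and the p53+/+ combination columns mostly blue, with PSMG1, PSMC6 and PSMD12 darkest in replicate 1.

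The first question was whether p53 activation by Nutlin-3A moved these genes in p53+/+ cells. Of the 43 members 4 fell and none rose, which is 9.3%, beside 9.5% of all 12466 tested genes lower and 7.89% higher (17.4% in either direction), so the share was close to that of all genes. The members that fell were PSMG1, PSMG3, PSMD2 and PSMC2. Called means an adjusted p under 0.05 in limma, fitted to all tested genes on log2(RPKM + 0.5). The median change over the members was -0.14, against -0.02 over all tested genes. In both replicate numbers 35 of the 43 (81.4%) were lower than DMSO, beside 42.7% of all tested genes. Genes of like abundance had a median change of -0.10, and their share lower in both was not counted.

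PSMG1, which pairs with PSMG2 to start the alpha ring, moved the most with Nutlin-3A. It had 54.8 and 55.9 RPKM in p53+/+ DMSO and 36.7 and 37.5 with Nutlin-3A, with no overlap. This was 1.49-fold lower (log2 change -0.57 with an SE of 0.15, adjusted p = 0.019). PSMD2, the large scaffold subunit of the cap base, went from 171 and 172 to 137 and 148 RPKM (log2 change -0.27 with an SE of 0.08, adjusted p = 0.029). PSMG3, whose product pairs with that of PSMG4, went from 34.3 and 34.3 to 28.6 and 28.3 RPKM (log2 change -0.26 with an SE of 0.08, adjusted p = 0.036). PSMC2, an ATPase, went from 39.8 and 41.8 to 33.8 and 34.5 RPKM (log2 change -0.25 with an SE of 0.08, adjusted p = 0.042). For all 4 genes both Nutlin-3A libraries lay below both DMSO libraries. Leaving out any single library ended the calls of PSMG1 (adjusted p 0.072 to 0.1), PSMG3 (0.13 to 0.16) and PSMC2 (0.1 to 0.23), and PSMD2 kept its call only without Nutlin-3A replicate 2. That left 0 calls without Nutlin-3A replicate 1 or either DMSO library, and 1 without Nutlin-3A replicate 2. A block for the replicate number gave 13 lower members (30.2%), among them 4 ATPases and 3 PSMG genes, beside 17.4% of all genes lower and 14.1% higher in that fit, while quantile normalization gave 1 higher and 1 lower and equal summed RPKM 0 (PSMG1 at an adjusted p of 0.081).

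Nutlin-3A gave p53-/- cells no call by limma among the members and 0% over all genes. At an unadjusted p under 0.05 there were 3 members and 440 of all tested genes. PSMG1 had 52.7 and 51.4 RPKM with DMSO and 52.1 and 57.2 with Nutlin-3A, and these libraries overlapped (log2 change 0.07, 95% interval -0.25 to 0.39). PSMG3 went from 40.4 and 40.9 to 37.5 and 33.5 RPKM (-0.20, 95% interval -0.37 to -0.03), without overlap.

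The second question was the response to Entinostat, and it was one of lower levels only. In p53+/+ cells 13 of 43 members fell (30.2%), beside 12.4% of all tested genes lower and 15.1% higher (27.5% either way). Among p53-/- libraries 19 fell (44.2%), beside 13.3% lower and 15% higher (28.2% either way). The median changes over the members were -0.22 and -0.26, and no member rose in either line. All 13 of the first set had libraries that did not overlap, as did all 19 of the second. The share of all called genes without overlap was not counted, so this adds nothing to the calls. In both replicate numbers 40 of the 43 were lower in p53+/+ cells (93%, beside 40.9% of all tested genes) and 38 in p53-/- cells (88.4%, beside 39.4%). With the replicate number as a block 26 members were called in p53+/+ cells, all lower (60.5%), beside 20.4% of all genes lower and 24.2% higher.

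The Entinostat calls were spread over most roles. Of the 6 ATPases, the motor ring of the cap, 4 fell in p53+/+ cells (PSMC1, PSMC2, PSMC3 and PSMC4) and 5 in p53-/- cells, where PSMC5 was added. Of the 4 PSMG genes 3 fell in p53+/+ cells and 2 in p53-/- cells. None of the 7 alpha-ring genes fell in p53+/+ cells, and PSMA7 was the 1 called in p53-/- cells (-0.33), a call lost without DMSO replicate 1 (adjusted p = 0.059), DMSO replicate 2 (0.081) or Entinostat replicate 1 (0.1). Among the 11 other cap subunits PSMD7, PSMD8 and PSMD11 fell in both lines, and PSMD3 and PSMD13 in p53-/- cells as well. Differences between classes were not tested, and classes with few members give coarse counts.

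PSMG3 was the member with the largest fall in both lines. It had 34.3 and 34.3 RPKM in p53+/+ DMSO and 23.0 and 22.6 with Entinostat (log2 change -0.58 with an SE of 0.08, adjusted p = 0.00088). PSMG3 in p53-/- cells went from 40.4 and 40.9 to 24.8 and 24.1 RPKM (log2 change -0.72 with an SE of 0.08, adjusted p = 0.00043). The drug libraries lay below the DMSO libraries in each line, and the call held without each single library. PSMG4, the partner of PSMG3, went from 15.4 and 15.1 to 9.66 and 10.6 RPKM in p53+/+ cells (log2 change -0.56 with an SE of 0.15, adjusted p = 0.015). This call was lost without DMSO replicate 1 (adjusted p = 0.07), DMSO replicate 2 (0.072) or Entinostat replicate 1 (0.12).

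Among the peptidases, PSMB5, which cuts after hydrophobic residues, fell in both lines. It had 141 and 141 RPKM in p53+/+ DMSO and 89.3 and 103 with Entinostat, 1.47-fold lower (log2 change -0.55 with an SE of 0.10, adjusted p = 0.0025). PSMB5 in p53-/- cells went from 155 and 153 to 99.1 and 111 RPKM (log2 change -0.55 with an SE of 0.10, adjusted p = 0.0026). Neither pair of groups overlapped. PSMB6, which cuts after acidic residues, went from 175 and 184 to 131 and 147 RPKM in p53+/+ cells (-0.37, adjusted p = 0.016) and from 187 and 189.6 to 135 and 140.0 in p53-/- cells (-0.46, 0.006). PSMB7, which cuts after basic residues, moved less, from 194 and 198 to 174 and 163 RPKM in p53+/+ cells (-0.22, adjusted p = 0.082) and from 224 and 212 to 171 and 189 in p53-/- cells (-0.27, 0.035). Its Entinostat libraries lay below DMSO in both lines, and only the p53-/- change passed without the replicate block, while with it the p53+/+ change did too (adjusted p = 0.03). The p53-/- call was lost with equal summed RPKM (adjusted p = 0.1), under quantile normalization (0.099) and without DMSO replicate 1 (0.17), DMSO replicate 2 (0.083) or Entinostat replicate 1 (0.26). The PSMB6 call was lost without Entinostat replicate 1 in both lines (0.16 and 0.061), and in p53+/+ cells also without DMSO replicate 1 (0.051) or 2 (0.11) and with equal summed RPKM (0.079).

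PSMD9, a cap assembly chaperone with a PDZ domain, was among the 4 largest falls in p53-/- cells, from 21.8 and 20.5 to 13.6 and 15.3 RPKM (log2 change -0.54 with an SE of 0.10, adjusted p = 0.0028). In p53+/+ cells PSMD9 had 20.5 and 20.2 RPKM with DMSO and 16.9 and 16.6 with Entinostat (-0.27, adjusted p = 0.052, and 0.026 with the replicate block), again without overlap. Whether the Entinostat response differed between the lines was tested directly. By limma no member and 0% of all genes were called, and at an unadjusted p under 0.05 there were 0 members and 164 genes. The 95% intervals of the 43 differences together spanned -0.54 to 0.74, so differences of that size were not detectable for every member. Without Entinostat replicate 1 the counts fell to 2 in p53+/+ and 4 in p53-/- cells, without DMSO replicate 1 to 8 and 9, and without DMSO replicate 2 to 4 and 8. With equal summed RPKM 8 members were called in each line, and with quantile normalization 11 in p53-/- cells.

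**Figure D2:**
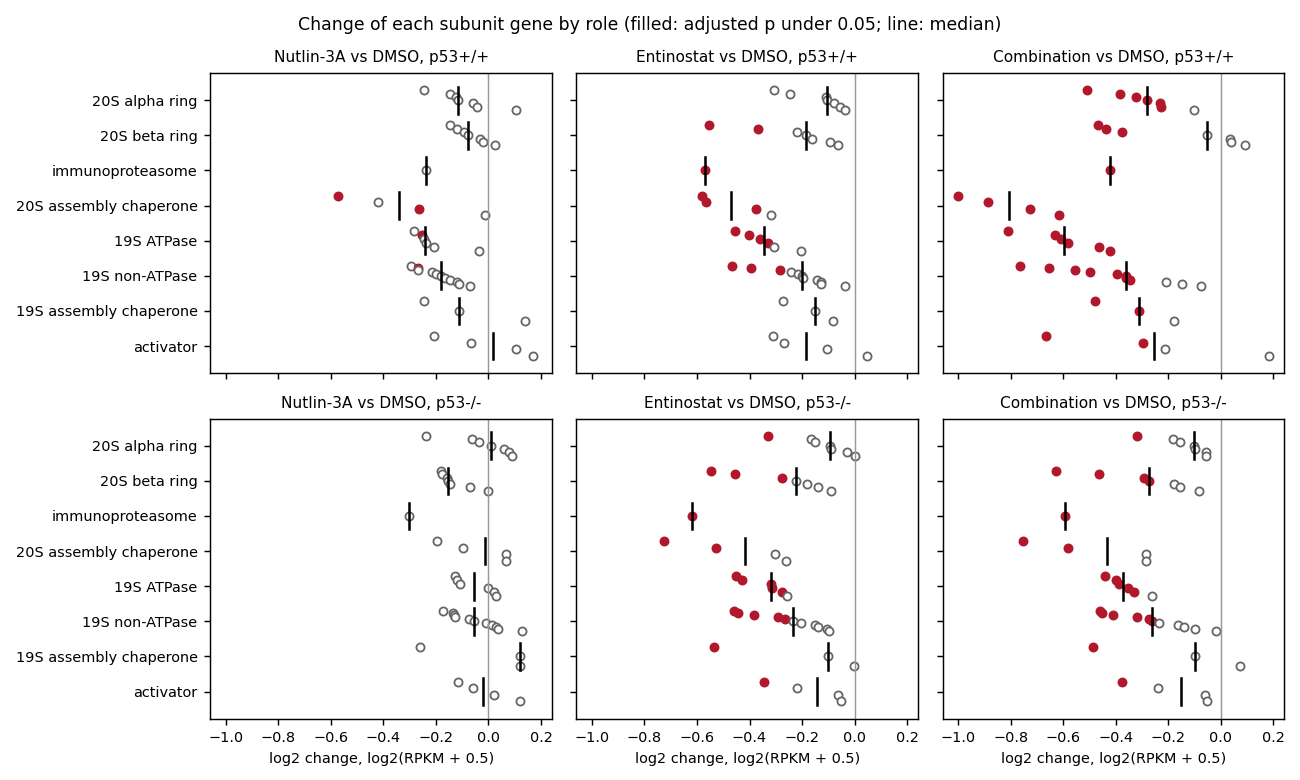
Log2 change of each of the 43 members against DMSO, on the log2(RPKM + 0.5) scale, for the 3 treatments (columns) in p53+/+ (top) and p53-/- cells (bottom), grouped by role. Filled red points passed an adjusted p of 0.05, open points did not, and black lines are class medians. The p53+/+ combination panel has 32 filled points, all left of 0, with the class medians of the PSMG and PSMC genes farthest left and 4 beta-ring genes near 0.

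The largest changes were those of the combination in p53+/+ cells, where 32 of 43 members fell and none rose (74.4%). Over all tested genes 26.8% were lower and 23.2% higher (50% either way). The median over the members was -0.38, against -0.03 over all tested genes. All 6 ATPases fell (median -0.60), as did all 4 PSMG genes (-0.81), 8 of 11 other cap subunits (-0.36) and 6 of 7 alpha-ring genes (-0.28), of which PSMA5 turned to 0.00 under quantile normalization. Of the 7 beta-ring genes 3 fell, PSMB2, PSMB5 and PSMB6, while PSMB1 (0.03), PSMB3 (-0.05), PSMB4 (0.09) and PSMB7 (0.04) were not called. All 32 had combination libraries below both DMSO libraries, which adds nothing to the calls, as the share among all called genes was not counted. Leaving out 1 library gave 24 to 31 calls.

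PSMG1 had 22.9 and 32.9 RPKM in the p53+/+ combination, against 54.8 and 55.9 with DMSO. It was 1.99-fold lower (log2 change -1.0 with an SE of 0.15, adjusted p = 0.00027), the largest change of a member in any comparison made. With Entinostat alone PSMG1 had 41.5 and 47.3 RPKM, above both combination libraries and below both DMSO libraries, a change that passed with the replicate block and not without it (-0.32, adjusted p = 0.028 and 0.13). PSMG4 went from 15.4 and 15.1 to 7.61 and 8.45 RPKM (log2 change -0.89 with an SE of 0.15, adjusted p = 0.00052). PSMC6, an ATPase of the cap base, went from 52.2 and 50.2 to 25.7 and 32.6 RPKM (log2 change -0.81 with an SE of 0.12, adjusted p = 0.00031). PSMD11, a subunit of the cap lid, went from 53 and 54.8 to 29.4 and 33.7 RPKM (log2 change -0.77 with an SE of 0.10, adjusted p = 0.00017). The groups did not overlap for these 4 genes, and their calls held without each single library.

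The combination lowered, in p53-/- cells, 21 of 43 members (48.8%) and raised none, beside 14.7% of all tested genes lower and 17.1% higher (31.8% either way). The median was -0.27. PSMG3 went from 40.4 and 40.9 to 23.1 and 24.7 RPKM (log2 change -0.75 with an SE of 0.08, adjusted p = 0.00027), and PSMB5 from 155 and 153 to 93.7 and 106 (log2 change -0.63 with an SE of 0.10, adjusted p = 0.0012). PSMG4 went from 15 and 14.1 to 8.81 and 10.3 RPKM (log2 change -0.58 with an SE of 0.15, adjusted p = 0.011). The groups did not overlap for these 3 genes. PSMG1 was not called here, with 38.7 and 46.7 RPKM against 52.7 and 51.4 with DMSO (-0.29, adjusted p = 0.16, and 0.04 with the replicate block), although both combination libraries were lower. The count fell to 3 without combination replicate 1, to 11 and 12 without DMSO replicate 1 and 2, and equal summed RPKM gave 10 and quantile normalization 11. The PSMG4 call was lost without DMSO replicate 1 (adjusted p = 0.063) or combination replicate 1 (0.11).

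Whether the lines differed in the combination response was tested directly. No member was called by limma, beside 3.81% of all tested genes lower and 1.97% higher (5.78% either way), and 5 members (11.6%) had an unadjusted p under 0.05, beside 23.4% of all genes. With the replicate number as a block 7 members (16.3%) were called, below the 23.8% of all genes in that fit. They were PSMG1, PSMD12, PSMC6, PSMA1 and PSMD5 with the stronger fall in p53+/+ cells and PSMB7 and PSMB4 with the higher value there. For PSMG1 the difference was -0.71 ± 0.21 on the log2 scale (adjusted p = 0.066, and 0.0059 with the block). PSMD12, a subunit of the cap lid, had 45.2 and 48.6 RPKM in p53+/+ DMSO and 26.0 and 33.7 with the combination. In p53-/- cells it had 54.6 and 52.6 RPKM with DMSO and 50.7 and 55.2 with the combination. PSMD12 fell in the first line (-0.65, adjusted p = 0.0017) and its libraries overlapped in the second (-0.02, 0.93), and the difference was -0.63 ± 0.18 (adjusted p = 0.065, and 0.0047 with the block). PSMC6 differed by -0.55 ± 0.17 (adjusted p = 0.082, and 0.0098 with the block). Without combination replicate 2 of p53+/+ cells 6 members were called with no block. For the Nutlin-3A response no member was called (3.29% of all tested genes lower, 3.49% higher, 6.78% either way, with 3 members and 19.3% of all genes at an unadjusted p under 0.05). With the block PSMG1 (-0.64, adjusted p = 0.011) and PSMD12 (-0.42, 0.039) were called, 4.65% of the members beside 17.1% of all genes.

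**Figure D3:**
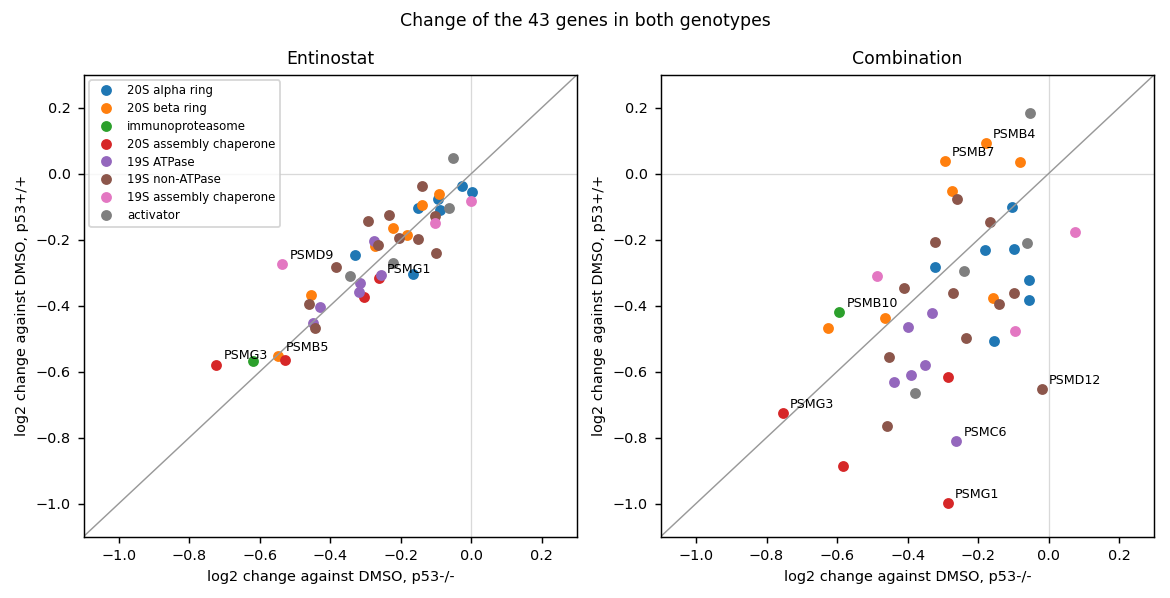
Log2 change against DMSO in p53-/- (horizontal) and p53+/+ cells (vertical) for Entinostat (left) and the combination (right), 1 point a member coloured by role, with the line of equal change in grey. With Entinostat the differences between the lines (p53+/+ minus p53-/-) ran from -0.14 to 0.26 over the 43 points, with PSMD9 farthest above the line. With the combination PSMG1, PSMC6 and PSMD12 lie below it and PSMB4 and PSMB7 above it.

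Across the 43 members the changes in the 2 lines correlated with r = 0.896 for Entinostat (0.906 over all tested genes), 0.468 for the combination (0.717) and 0.144 for Nutlin-3A (0.0673). The points are genes of shared libraries and not independent, so these values are a description. For the combination the value over the members was below that over all genes, a difference that was not tested.

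Within p53+/+ cells the combination was also set against each drug. Against Nutlin-3A alone 23 of 43 members were lower (53.5%) and none higher, beside 18.1% of all tested genes lower and 16.6% higher (34.7% either way). They included all 6 ATPases and all 4 PSMG genes. PSMG2, the partner of PSMG1, had 45.4 and 43.7 RPKM with Nutlin-3A and 26.4 and 32.2 with the combination (log2 change -0.60 with an SE of 0.11, adjusted p = 0.0025). PSMC6 went from 42.3 and 44.1 to 25.7 and 32.6 RPKM (log2 change -0.57 with an SE of 0.12, adjusted p = 0.0052), and PSMD11 from 46.7 and 42.6 to 29.4 and 33.7 (log2 change -0.50 with an SE of 0.10, adjusted p = 0.0043). PSMG4 went from 11.6 and 10.9 to 7.61 and 8.45 RPKM (log2 change -0.47 with an SE of 0.15, adjusted p = 0.028). No combination library reached the Nutlin-3A level of these 4 genes. The count was 6 without Nutlin-3A replicate 1 or combination replicate 1, and 15 without Nutlin-3A replicate 2. The PSMC6 call was lost without combination replicate 1 (adjusted p = 0.059), and the PSMG4 call without Nutlin-3A replicate 1 (0.13), Nutlin-3A replicate 2 (0.073) or combination replicate 1 (0.16).

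Against Entinostat alone 4 members were lower (9.3%), PSMG1, PSMC6, PSMD5 and PSMC1, which is close to the 9.69% of all tested genes lower (5.16% higher, 14.8% either way). PSMG1 had 41.5 and 47.3 RPKM with Entinostat and 22.9 and 32.9 with the combination (log2 change -0.68 with an SE of 0.15, adjusted p = 0.0093). PSMC6 went from 38.7 and 44.1 to 25.7 and 32.6 RPKM (log2 change -0.50 with an SE of 0.12, adjusted p = 0.017). PSMD5, a chaperone of the ATPase ring, went from 16.3 and 18.1 to 12.7 and 14.6 RPKM (-0.33, under the threshold before rounding to adjusted p = 0.05), and PSMC1 from 109 and 119 to 93.4 and 94.8 (-0.28, adjusted p = 0.045). The groups did not overlap for these 4 genes. All 4 calls were lost without Entinostat replicate 2 (adjusted p 0.086 to 0.29) or combination replicate 1 (0.088 to 0.32). Those of PSMD5 (0.075) and PSMC1 (0.068) were also lost without Entinostat replicate 1, which left 2 calls. That of PSMC1 was lost without combination replicate 2 (0.074), where 8 members were called. A block for the replicate number gave 13 lower (30.2%) and 2 higher members (4.65%). Of all genes 19.3% were lower and 12% higher in that fit (31.3% either way). With median-of-ratios scaling 2 were lower and 1 higher, and with quantile normalization 2 were called.

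**Figure D4:**
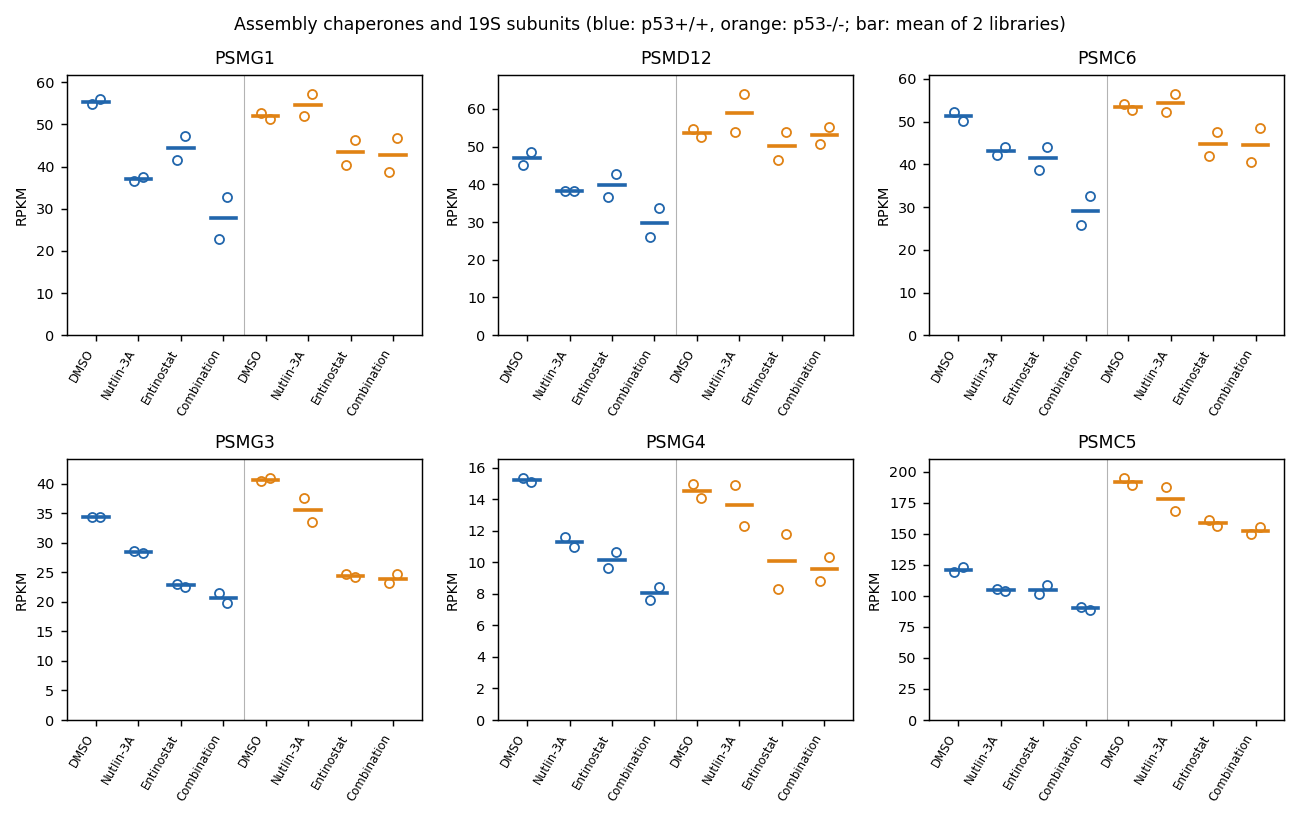
RPKM of PSMG1, PSMD12, PSMC6, PSMG3, PSMG4 and PSMC5 in each library (open circles) and their mean as a bar, on linear axes from 0 (blue for p53+/+, orange for p53-/-). PSMG1 is lowest in the p53+/+ combination at 22.9 and 32.9 RPKM, PSMG3 is low in all groups with Entinostat, and PSMC5 is higher in every p53-/- than in every p53+/+ library.

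Taking the 4 groups with Entinostat against the 4 without, over both lines and with or without Nutlin-3A, 34 of 43 members were lower (79.1%) and none higher, beside 30.1% of all tested genes lower and 31.7% higher (61.8% either way). The median was -0.21, against 0.01 over all genes. All 6 ATPases, all 4 PSMG genes, 9 of 11 other cap subunits, 5 of 7 beta-ring genes and 4 of 7 alpha-ring genes were lower. PSMB1 (-0.02), PSMB4 (-0.05), PSMD2 (-0.02), PSMD4, PSMD10, PSMA3, PSMA4, PSMA5 and PSME1 (0.03) were not called. The largest changes were those of PSMG3 (log2 change -0.58 with an SE of 0.04, adjusted p = 5.9e-07), PSMG4 (log2 change -0.51 with an SE of 0.07, adjusted p = 8.0e-05), PSMB5 (log2 change -0.48 with an SE of 0.05, adjusted p = 6.2e-06) and PSMD11 (log2 change -0.47 with an SE of 0.05, adjusted p = 1.2e-05). For PSMD11 the p53+/+ libraries ran from 53 and 54.8 RPKM with DMSO to 36.4 and 41.5 with Entinostat, and the p53-/- libraries from 56.4 and 57.4 to 39.7 and 43.8. The 8 libraries with Entinostat lay wholly below the 8 without for 6 of the 34, and the others overlapped. The share of all genes separated in this way was not counted. For PSMD12 and PSME4 the call was lost under quantile normalization (adjusted p = 0.24 and 0.061) and with equal summed RPKM (0.067 and 0.085).

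Level moved with these changes. Over all tested genes the log2 change was lower at higher mean RPKM, with a rank correlation of -0.317 for Entinostat and -0.364 for the combination in p53+/+ cells and of -0.367 and -0.383 in p53-/- cells. The members are abundant, so they were set beside the 4578 tested genes with a mean from 11.6 to 277 RPKM, the range of the members. Of these genes 16% were lower with Nutlin-3A, 19% with Entinostat and 43.4% with the combination in p53+/+ cells, and 22.4% with Entinostat and 25.2% with the combination in p53-/- cells. Their medians were -0.10, -0.09, -0.22, -0.11 and -0.11 in that order. The share of members called lower was below the first of these shares and above the other 4. With the p53+/+ combination set against Nutlin-3A alone, 25.3% of the genes in this range were lower, beside 53.5% of the members. Against Entinostat alone it was 16.9%, beside 9.3% of the members. The share of genes in this range that were lower in both replicate numbers was not counted. Within the members the relation ran the other way, with a rank correlation of 0.331 for Entinostat and 0.477 for the combination in p53+/+ cells, the less abundant members having the larger falls, and it was close to none in p53-/- cells (0.156 and 0.0879). The part of level in the members' changes was not tested.

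Ratios between the rings were also taken. The mean of the 6 ATPase genes was 47.8% and 50.1% of the mean of the 7 beta-ring genes in p53+/+ DMSO, 43.6% and 44.3% with Nutlin-3A, 42.2% and 46.8% with Entinostat and 33.4% and 36.8% with the combination, all below DMSO. In p53-/- cells it was 55.5% and 57.6% with DMSO, 51.7% and 53.9% with Entinostat, which did not overlap, and 49.1% and 56.3% with the combination, which did. The mean of the 7 alpha-ring genes went from 73.1% and 71.9% of that of the beta ring in p53+/+ DMSO to 58.7% and 66.8% in the p53+/+ combination. In p53+/+ cells it was 70.3% and 69.6% with Nutlin-3A, below DMSO, but 73.9% and 77.0% with Entinostat, above DMSO. The p53-/- libraries had 73.1% and 73.5% with DMSO. All p53-/- drug libraries lay above these, with 75.2% and 82.0% for Nutlin-3A, 77.4% and 79.8% for Entinostat and 77.0% and 80.9% for the combination. These are ratios of RPKM within a library and were not tested.

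Without drug, 2 members were higher in p53-/- than in p53+/+ cells and none lower, which is 4.65% in all, beside 1.56% of all tested genes higher and 3.13% lower (4.69% either way). PSMC5, an ATPase of the cap, had 119 and 123 RPKM in p53+/+ DMSO and 195 and 189 in p53-/- DMSO, 1.59-fold higher (log2 change 0.66 with an SE of 0.08, adjusted p = 0.00031). PSME4, which encodes the activator PA200, had 8.79 and 9.73 RPKM in p53+/+ and 14.8 and 17.4 in p53-/- DMSO, 1.74-fold higher (log2 change 0.77 with an SE of 0.12, adjusted p = 0.0022). The lines did not overlap for either gene, and both calls held without each single library. With the replicate number as a block 4 members were higher and 3 lower (PSMB10, PSME1 and PSME2), 16.3% beside 13.1% of all genes, and with quantile normalization 2 were higher and 1 lower.

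Averaged over the 4 treatments, 24 members were higher in p53-/- cells and 3 lower, beside 26.3% of all tested genes higher and 25.3% lower (51.6% either way). The median was 0.15, against 0.01 over all genes, and 36.2% of genes in the members' range of levels were higher. PSME4 (log2 change 0.80 with an SE of 0.06, adjusted p = 5.9e-07) and PSMC5 (log2 change 0.69 with an SE of 0.04, adjusted p = 7.1e-08) led, followed by PSMD12 (log2 change 0.49 with an SE of 0.07, adjusted p = 7.4e-05) and PSMC3 (log2 change 0.35 with an SE of 0.05, adjusted p = 0.00023). Every p53-/- library of PSMC5, from 149.7 to 195 RPKM, was above every p53+/+ library, from 89.0 to 123. The mean over the 4 treatments includes the drug groups of both lines. With DMSO alone PSMD12 differed by 0.27 and 0.11 in replicates 1 and 2, and was not called. PSMG1 differed by -0.06 and -0.12 with DMSO alone, and by 0.29 and 0.24 averaged over the 4 treatments. PSMC3, an ATPase, had 123 and 126 RPKM in p53+/+ DMSO and 152 and 149 in p53-/- DMSO. With the combination PSMC3 had 73.4 and 87.4 RPKM in p53+/+ and 101 and 121 in p53-/- cells, again without overlap. All 6 ATPases were higher, as were 5 of 7 alpha-ring genes, but only PSMB2 of the beta ring (0.26). The 3 members that were lower in p53-/- cells, PSME1, PSME2 and PSMB10, are genes that interferon is known to induce.

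The immunoproteasome was nearly absent from these cells except for PSMB10. PSMB10 had 24.7 and 28.5 RPKM in p53+/+ DMSO, 22.0 and 22.9 with Nutlin-3A, 16.7 and 18.8 with Entinostat and 18.2 and 21.4 with the combination. The p53-/- libraries of PSMB10 had 20.4 and 21.5 RPKM with DMSO, 17.1 and 16.7 with Nutlin-3A, 11.6 and 15.5 with Entinostat and 12.1 and 15.4 with the combination. It fell with Entinostat in both lines (log2 change -0.57 with an SE of 0.15, adjusted p = 0.014 in p53+/+ cells, and log2 change -0.62 with an SE of 0.15, adjusted p = 0.0093 in p53-/- cells), and the Entinostat libraries lay below the DMSO libraries in each. The p53+/+ and p53-/- combination gave -0.42 (adjusted p = 0.03) and -0.59 (0.0099). Relative to PSMB7, the subunit it replaces, PSMB10 had 12.7% and 14.4% of the RPKM in p53+/+ DMSO and 9.08% and 10.2% in p53-/- DMSO. Averaged over the 4 treatments PSMB10 was lower without p53 (log2 change -0.41 with an SE of 0.07, adjusted p = 0.00061), while with DMSO alone the difference did not pass without the replicate block (-0.34, adjusted p = 0.27, and 0.038 with the block). The Entinostat call was lost without DMSO replicate 2 or Entinostat replicate 1 of the line in question (adjusted p 0.11 and 0.12 in p53+/+ cells, 0.061 and 0.11 in p53-/- cells), and that of the p53-/- combination without DMSO replicate 2 (0.064) or combination replicate 1 (0.12). That of the p53+/+ combination was lost without DMSO replicate 2 (0.19) or combination replicate 1 (0.2). With equal summed RPKM all 4 drug calls of PSMB10 missed the threshold (adjusted p 0.051 to 0.059), and with quantile normalization that of the p53+/+ combination (0.24).

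PSMB9, which lies next to the peptide transporter gene TAP1, went the other way with Entinostat, at a far lower level. It had 0.291 and 0.280 RPKM in p53+/+ DMSO, 0.214 and 0.255 with Nutlin-3A, 1.11 and 0.849 with Entinostat and 1.44 and 0.786 with the combination. The p53-/- libraries of PSMB9 had 0.121 and 0.0739 RPKM with DMSO, 0.101 and 0.142 with Nutlin-3A, 0.641 and 0.305 with Entinostat and 0.647 and 0.341 with the combination. All 8 libraries with Entinostat lay above the 4 others of their line, and replicate 1 was the higher one in each group with Entinostat. PSMB9 was below the filter of the main test, and in the limma fit without a filter it rose with Entinostat in p53+/+ cells (log2 change 0.91, adjusted p = 0.023) and over all groups (0.84, adjusted p = 0.00021), while the Entinostat change in p53-/- cells did not pass (0.68, adjusted p = 0.062). With the combination PSMB9 rose in p53+/+ (1.01, adjusted p = 0.0064) and in p53-/- cells (0.72, adjusted p = 0.047). In the same limma fit PSMB9, like PSMB10, was lower in p53-/- cells over the 4 treatments (-0.49, adjusted p = 0.0069). With DMSO alone that difference did not pass (-0.40, adjusted p = 0.53). At its highest PSMB9 had 1.18% of the RPKM of PSMB6, the subunit it replaces. PSMB8, the third of the set, had 0.0533 RPKM or less in every library and was listed at 0 in p53-/- Nutlin-3A replicate 2, and gives no fold at this depth. PSMA8, an alpha subunit of the testis, and PSMB11, a beta subunit of the thymus, had 0.0419 RPKM or less in every library and are not described further.

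The activators differed among themselves. PSME1 had 78.8 and 69.0 RPKM in p53+/+ DMSO, 84.9 and 74.2 with Nutlin-3A, 83.1 and 69.8 with Entinostat and 88.0 and 79.7 with the combination. In p53-/- cells it had 70.5 and 49.4 RPKM with DMSO, 64.9 and 45.7 with Nutlin-3A, 64.2 and 50.4 with Entinostat and 65.4 and 49.5 with the combination. Replicate 1 was higher than replicate 2 in all 8 groups, and of the drug groups only the p53+/+ combination lay apart from its DMSO libraries, above them. PSME1 was lower in p53-/- cells over the 4 treatments (log2 change -0.46 with an SE of 0.10, adjusted p = 0.003). With DMSO alone the difference passed only with the replicate block (-0.32, adjusted p = 0.51, and 0.038 with the block). No drug changed PSME1 enough for a call against DMSO. PSME2, its partner in the activator, had 112 and 106 RPKM in p53+/+ DMSO, 106 and 102 with Nutlin-3A, 86.8 and 94.5 with Entinostat and 84.8 and 93.1 with the combination. The p53-/- libraries of PSME2 had 93.3 and 79.7 RPKM with DMSO, 90.5 and 75.7 with Nutlin-3A, 75.0 and 72.8 with Entinostat and 73.4 and 72.6 with the combination. It fell with the p53+/+ combination (-0.30, adjusted p = 0.031, and 0.17 under quantile normalization), a call lost without DMSO replicate 1 (0.14), DMSO replicate 2 (0.07) or combination replicate 1 (0.18), and was lower in p53-/- cells (log2 change -0.31 with an SE of 0.05, adjusted p = 0.00037). PSME3, the nuclear activator REG gamma, fell with the p53+/+ combination from 61.7 and 66.6 to 38.4 and 42.3 RPKM (-0.66, adjusted p = 0.0007). PSME4 was not called against DMSO for any drug, except for the p53+/+ combination with the replicate block (-0.21, adjusted p = 0.15, and 0.033 with the block). It was lower over all groups with Entinostat (-0.18).

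**Figure D5:**
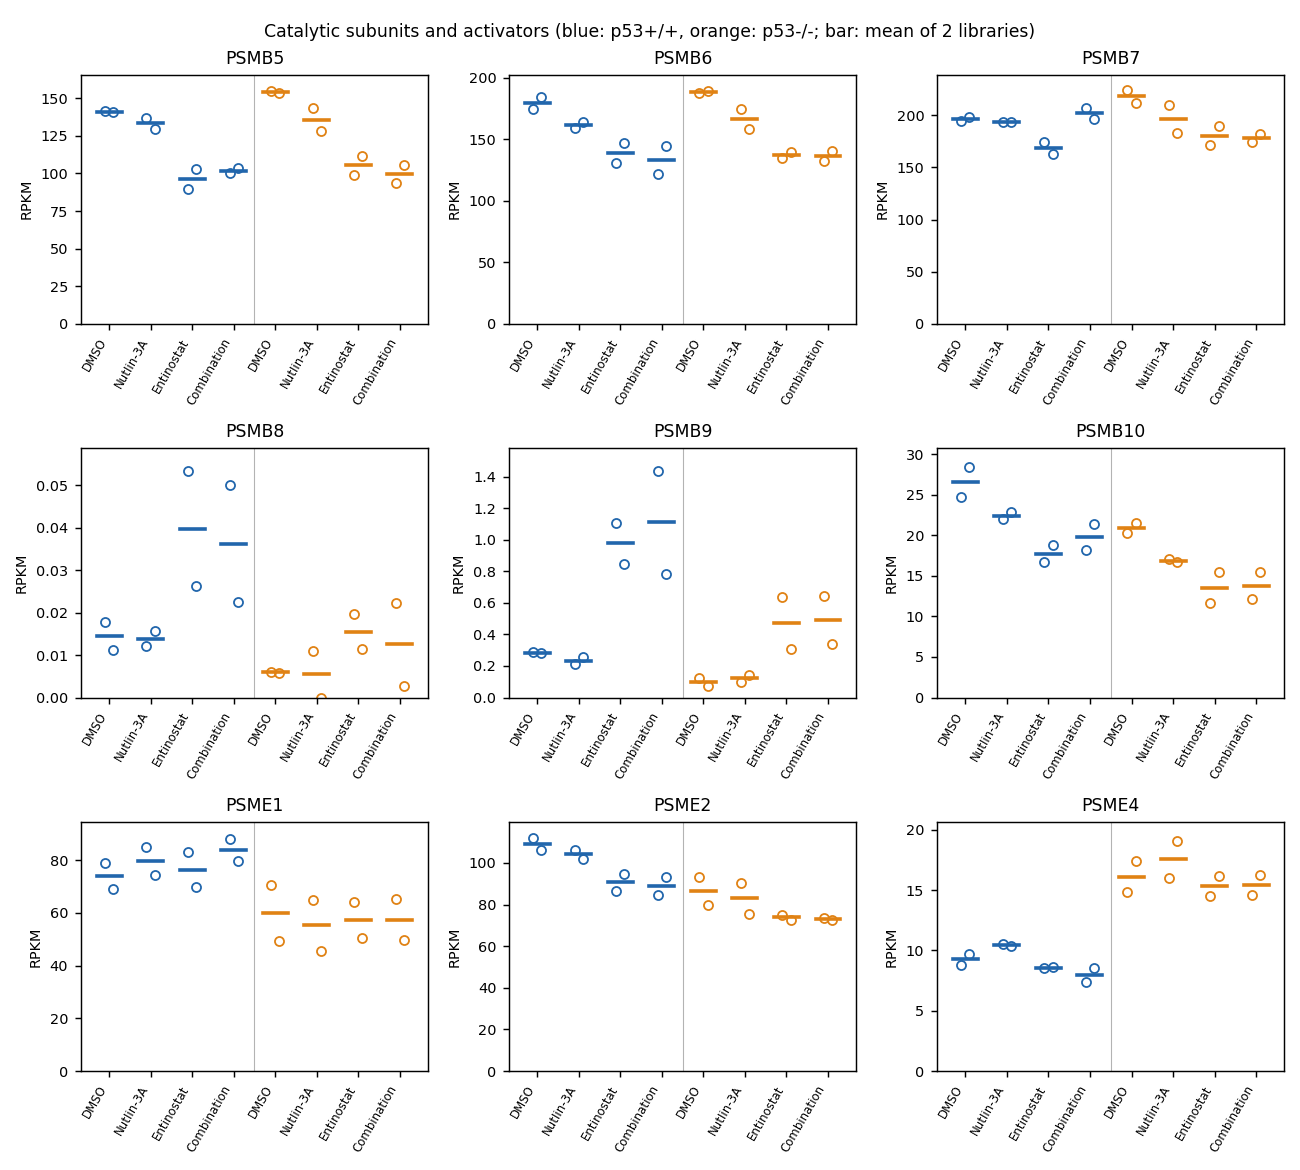
RPKM of the peptidases PSMB5, PSMB6 and PSMB7, of PSMB8, PSMB9 and PSMB10, which replace them, and of the activators PSME1, PSME2 and PSME4, in each library (open circles) and their mean as a bar (blue for p53+/+, orange for p53-/-). Each panel has its own axis from 0. PSMB5 is lower in all groups with Entinostat, PSMB9 is higher there but reaches only 1.44 RPKM, and PSMB8 stays below 0.06 RPKM.

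The promoters of the members were searched for motifs of factors known to act on such genes. RefSeq windows of GRCh38.p14, from 250 bases before to 50 after a gene's start, were given for 37 of the 43 members (44 windows). PSMA7, PSMB1, PSMB6, PSMB7, PSMD4 and PSMG3 had none. The searched letters, on both strands, were TGACNNNGC for the core of the antioxidant response element, CCAAT for the box of the NFY factors, and GAAA on both sides of any 2 bases for the core of the interferon-stimulated response element, and matches of 2 motifs overlapped in 0 member windows. Below are the 250 bases before the start of 4 members, printed because PSMG1 and PSMD12 had the largest differences in combination response between the lines and PSMB10 and PSME2 were lower without p53. Each is written 5′ to 3′ on the gene's own strand, the minus strand in all 4, with matches in capitals.
PSMG1, chr21:39183452-39183701: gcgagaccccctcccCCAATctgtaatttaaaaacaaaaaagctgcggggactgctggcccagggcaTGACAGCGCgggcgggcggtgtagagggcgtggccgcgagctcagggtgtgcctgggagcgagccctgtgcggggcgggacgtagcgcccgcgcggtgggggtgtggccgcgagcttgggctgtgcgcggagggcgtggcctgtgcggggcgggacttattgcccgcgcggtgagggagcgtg
PSMD12, chr17:67366578-67366827: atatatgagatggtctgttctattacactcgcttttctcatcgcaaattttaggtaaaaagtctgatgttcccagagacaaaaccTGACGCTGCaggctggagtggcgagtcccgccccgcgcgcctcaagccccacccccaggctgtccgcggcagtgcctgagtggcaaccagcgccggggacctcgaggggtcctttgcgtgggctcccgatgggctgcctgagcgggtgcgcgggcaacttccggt
PSMB10, chr16:67936851-67937100: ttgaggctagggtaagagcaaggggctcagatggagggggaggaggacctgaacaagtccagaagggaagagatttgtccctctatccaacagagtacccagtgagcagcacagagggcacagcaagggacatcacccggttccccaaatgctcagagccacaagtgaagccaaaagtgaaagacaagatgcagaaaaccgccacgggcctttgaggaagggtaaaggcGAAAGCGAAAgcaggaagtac
PSME2, chr14:24146611-24146860: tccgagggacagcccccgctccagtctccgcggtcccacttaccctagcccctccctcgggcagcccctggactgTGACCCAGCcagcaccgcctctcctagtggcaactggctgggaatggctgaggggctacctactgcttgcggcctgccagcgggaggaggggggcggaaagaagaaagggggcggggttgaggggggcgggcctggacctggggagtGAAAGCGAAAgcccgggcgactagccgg

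PSMG1 carried CCAAT at position -235 from the start and TGACAGCGC at -183, and PSMD12 carried TGACGCTGC at -165. PSMB10 and PSME2 shared the same 10 letters, GAAAGCGAAA, at -21 and -28, and PSME2 also had TGACCCAGC at -175. TGACNNNGC was found in 31.8% of member windows and 13.3% of all 35116 windows, in 14 of 37 genes. CCAAT was found in 40.9% and 34.6%, in 18 genes, and the interferon motif in 13.6% and 3.57%, in 6 genes (PSMA4, PSMB4, PSMB10, PSME1, PSME2 and PSMG4). Calls were counted with and without a match, as a description. Over the groups with Entinostat 12 of 14 genes with TGACNNNGC were lower and 18 of 23 without it, and with the p53+/+ combination 10 of 14 and 19 of 23. In the same order CCAAT had 14 of 18 and 16 of 19, then 15 of 18 and 14 of 19, and the interferon motif 3 of 6 and 27 of 31, then 4 of 6 and 25 of 31. A match is a description of letters, and was not tested as a site.

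Of 13 other proteasome subunits and partners, 6 were lower and 2 higher over the groups with Entinostat. As given above, 30.1% of all tested genes were lower and 31.7% higher in this comparison, and 44.5% of those in the members' range of levels were lower, so that this count and those of the next 3 lists lay near the share of all genes or of that range. ZFAND2A, an arsenite-inducible partner of the cap (log2 change -0.59 with an SE of 0.07, adjusted p = 1.4e-05), KIAA0368 (the table's name for ECPAS, which ties the core to the cap, log2 change -0.59 with an SE of 0.10, adjusted p = 0.00022) and TXNL1, a thioredoxin bound to the cap (-0.49), were lower. ZFAND5, a partner that speeds degradation (log2 change 0.45 with an SE of 0.04, adjusted p = 5.4e-06), and AKIRIN2, which carries proteasomes into the nucleus (0.23), were higher. ADRM1, a ubiquitin receptor of the cap, was lower as well (-0.37).

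Of 12 transcription factors and processing enzymes of proteasome genes, 4 were lower and 2 higher over the groups with Entinostat. NFE2L1 had no called change with any drug, with -0.08 for Entinostat over all groups (adjusted p = 0.24). KEAP1, which marks NFE2L2 for degradation, had 39.9 and 39.4 RPKM in p53+/+ DMSO and 15.7 and 15.7 with the combination. In p53-/- cells it went from 38.6 and 45.3 to 17.2 and 21.6 RPKM. The groups did not overlap, and KEAP1 had the largest change of the list (log2 change -1.02 with an SE of 0.06, adjusted p = 4.8e-07 over all groups with Entinostat). MAFG, a small MAF partner (-0.42), and NFE2L2 itself (-0.32) were lower too, and BACH1, a repressor at the same elements (0.32), and NFYA (0.42) were higher. In p53+/+ cells NFYB fell with Nutlin-3A, from 8.86 and 8.65 to 5.36 and 5.95 RPKM (log2 change -0.59 with an SE of 0.09, adjusted p = 0.00093).

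Of 15 genes of ubiquitin supply and shuttles 7 were lower and 1 higher over the groups with Entinostat. The shuttle genes UBQLN4 (-0.46) and RAD23B (-0.38) were lower, and the polyubiquitin gene UBB was higher (0.35). Of 7 antioxidant response targets 2 were lower, with SLC7A11, the cystine transporter, at -0.66, and 3 were higher, SRXN1 (0.50), GCLC (0.40) and TXNRD1 (0.39). Of 9 tested partners of the immunoproteasome in antigen processing 4 were higher and 3 lower over the groups with Entinostat. In p53-/- cells over the 4 treatments 4 of the 9 were lower and none higher, beside 25.3% of all tested genes lower and 26.3% higher. Among them were TAP1 (log2 change -0.88 with an SE of 0.06, adjusted p = 2.3e-07), B2M, the light chain of MHC class I (-0.81), and the factor IRF1 (-0.56). TAP1 rose with Nutlin-3A in p53+/+ cells, from 1.82 and 1.70 to 5.02 and 4.67 RPKM (log2 change 1.24 with an SE of 0.11, adjusted p = 2.6e-05), while its neighbour PSMB9 was not called (log2 change -0.10, adjusted p = 0.97 in the fit without a filter).

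Some members could share reads with other genes, and how reads were assigned is not stated in the labels or notes. PSMA3, PSMD5, PSMD6 and PSMG3 have antisense partners in the table, of which PSMA3-AS1 averaged 6.02 RPKM and PSMD5-AS1 2.15. PSMD5-AS1 had a mean of 1.34 RPKM in p53+/+ DMSO and 3.70 in the p53+/+ combination, while PSMD5 fell there (-0.48, adjusted p = 0.0024). PSMA2, PSMA3, PSMA6, PSMB3, PSMB7, PSMC1, PSMD4, PSMD7, PSMD8, PSMD10, PSMD12 and PSME2 have processed pseudogenes of like sequence, so reads could have been split, and their levels are uncertain to that extent.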

How the data were processed

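RNA-seq of 16 libraries from HCT116 cells (8 groups, 2 replicates each) was deposited by the authors as one table of RPKM for 20612 genes. The submitters' processing notes name Bowtie2, the build hg19 and Partek, and alignments per library are given with the deposited RPKM. The sources used here do not say how genes were counted or whether strand was used. The fit used log2(RPKM + 0.5) of the 12466 genes whose mean RPKM was 0.5 or more. The 8 group means were fitted with limma 3.58.1 in R 4.3.3 (intensity trend, 8 residual and 4.09 prior degrees of freedom), and p-values were adjusted by Benjamini-Hochberg over all tested genes within each of 14 comparisons. A fold on this scale understates changes of low genes. The test was checked on simulated data in which libraries varied independently, so the check does not cover variation shared by same-numbered samples. Replicate numbers paired the samples: over the 28 pairs of groups the deviations of same-numbered samples correlated with r from 0.27 to 0.78, and a fit with this block was an alternative. Others were the pseudocount, the filter, the scaling, no trend and leaving out each library. An alternative with equal summed RPKM was added after seeing the data. The members and gene lists were chosen with earlier results of these data known. Genes printed with each library's values were the 4 largest called changes of each comparison (up to 4 each way between the lines), PSMB5 to PSMB10, PSME1, PSME2 and the highest and lowest member. RPKM hold no read counts, so no counting interval was given. Promoter sequences came from RefSeq (GRCh38.p14).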

Additional observations from a re-analysis of the deposited data

Results flagged for a closer look

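In 4 cases the response to a drug differed between the lines by limma, all of them genes of the listed pathways and none a proteasome subunit gene. TAP1, a peptide transporter subunit, had a Nutlin-3A response 1.4 log2 units higher in p53+/+ than in p53-/- cells (adjusted p = 0.00042), with 1.82 and 1.70 RPKM in p53+/+ DMSO, 5.02 and 4.67 with Nutlin-3A. TAP1 in p53-/- cells had 1.35 and 1.07 RPKM with DMSO and 1.11 and 0.951 with Nutlin-3A. NFYB, a subunit of the CCAAT-binding factor, had a response lower by 0.63 for Nutlin-3A (-0.632, adjusted p = 0.013) and by 0.76 for the combination (-0.763, adjusted p = 0.0095). The adjusted p for Nutlin-3A rose to 0.052 without replicate 1 of p53+/+ DMSO, to 0.065 without replicate 1 of p53+/+ Nutlin-3A and to 0.061 without replicate 2 of p53-/- DMSO. NFYB had 8.86 and 8.65 RPKM in p53+/+ DMSO, 5.36 and 5.95 with Nutlin-3A and 5.60 and 6.12 with the combination. The p53-/- libraries of NFYB had 8.95 and 7.79 RPKM with DMSO, 8.56 and 8.66 with Nutlin-3A and 10.1 and 9.5 with the combination. NFE2L2, a factor of antioxidant response elements, differed by -0.391 for the combination, just under the threshold (adjusted p = 0.05 after rounding). It had 33.4 and 32.7 RPKM in p53+/+ DMSO and 23.3 and 24.5 with the combination. In p53-/- cells NFE2L2 had 31.8 and 29.4 RPKM with DMSO and 29.3 and 28.9 with the combination, without overlap in either line. This call was lost without any single library (adjusted p 0.069 to 0.17) other than combination replicate 2 of p53+/+ cells. Groups of 2 libraries were too small to look for single samples far from the rest.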

How the results depend on the processing

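Among 179 calls of a member in a comparison, quantile normalization ended 48, equal summed RPKM 39, no intensity trend 10, no filter 7, median-of-ratios scaling 4 and a pseudocount of 0.1 ended 1, while a pseudocount of 1, a mean RPKM of at least 1 and the replicate block ended none. With Nutlin-3A in p53+/+ cells the 4 calls became 2 under median-of-ratios scaling, 2 under quantile normalization, 2 without the trend, 13 with the replicate block and 0 with equal summed RPKM. For Entinostat the 13 calls of p53+/+ cells became 26 with the replicate block and 8 with equal summed RPKM, and the 19 of p53-/- cells 11 with quantile normalization and 8 with equal summed RPKM. For the p53-/- combination the 21 became 11 and 10 in the same order. The replicate block gave 7 calls in place of 2 between the lines with DMSO, 2 in place of 0 for the difference in Nutlin-3A response, 7 in place of 0 for the difference in combination response, and 15 in place of 4 for the combination against Entinostat, where quantile normalization and no trend gave 2 each. It moved no other count of members by over 1.5 times. Quantile normalization turned PSMA5 in the p53+/+ combination to a log2 change of 0.00402, UBE3C there to 0.00869, and NLRC5 over all groups with Entinostat to -0.0267. Leaving out 1 library gave 0 to 1 calls for Nutlin-3A, 2 to 14 for Entinostat and 24 to 31 for the combination in p53+/+ cells. In p53-/- cells it gave 0 to 0, 4 to 17 and 3 to 16. Between the lines it gave 2 to 2 with DMSO and 25 to 29 over the 4 treatments, 33 to 35 for all groups with Entinostat, 0 to 0, 0 to 0 and 0 to 6 for the differences in Nutlin-3A, Entinostat and combination response, 6 to 22 for the combination against Nutlin-3A and 0 to 8 against Entinostat. A group left with 1 library was assumed to vary like the others. Equal summed RPKM moved the median over all genes of the difference in combination response from -0.04 to -0.16. The causes of these changes were not tested. With 2 libraries a group and no read counts, small changes of single members were not detectable, and RPKM cannot show a change in total RNA per cell.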

Other observations

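The genes beside the members that differed most between the lines were looked at after their values had been seen. For each, the 5 nearest tested genes on either side were taken, and their difference between the lines was averaged over the 4 treatments. Around PSMC5 (0.69) 2 of the 10 were higher in p53-/- cells and 3 lower, with a median of 0.04 and a range of -0.52 to 0.39. Around PSME4 (0.80) 3 were higher and 2 lower, with a median of 0.05 and a range of -0.51 to 0.37. Around PSMD12 (0.49) 4 were higher and 1 lower, with a median of 0.09 and a range of -0.22 to 0.65. PSMC5 and PSME4 lay above all 10 of their neighbours, and PSMD12 did not. As these members were picked for their large differences, a place above the neighbours was partly set by that choice.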
